A study of Mus musculus with 66 samples.

Results

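The 10 heart muscle genes described here were followed in RNA from homogenised mouse lung, on 66 one-colour Affymetrix arrays with 1 array per sample. They were Myl4, Myl7 and Sln (typical of the atria), Myl2, Myl3 and Myh7 (typical of the ventricles), and Myh6, Tnnt2, Tnni3 and Actc1 (expressed in both chambers). These sets were held fixed over all ages, and whether a gene kept to its chamber at each age was not tested. All 10 were found among 18193 genes that the platform annotation tied to at least 1 probe set of their own. The genes were picked by symbol with earlier results of these data known, and their probe sets were selected on brightness: the probe set with the highest mean over the 66 arrays stood for its gene, so high levels as such are no finding. Knockout mice (Nrf2-/-, KO) were set against wild-type mice (Nrf2+/+, WT) at 11 ages. There were 4 embryonic ages (E13.5 and E15.5, then E17.5 with E18.5), 5 ages from birth on (PND0 and PND1, PND2 with PND3, and PND4), a juvenile age (PND14) and an adult age (PND42), the number being the day. Each of the 22 groups had 3 samples. Nrf2, encoded by Nfe2l2, is a transcription factor that turns on antioxidant genes, and the knockout is carried in every cell of the animal. Each sample was 1 lung, except at E13.5, where each combined 2 to 3 lungs. Litters are not given in the sources used here, so p-values measure only the spread between these samples. The mice came from timed matings, dams and pups of both genotypes ate the same AIN-76A feed, and no treatment beyond housing is named.

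Heart muscle cells contract through sarcomeres, in which myosin heavy chains (Myh6, Myh7) carry paired light chains (Myl2, Myl3, Myl4, Myl7) and pull on thin filaments made of actin (Actc1) and the calcium-sensing troponin complex (Tnnt2, Tnni3). Sarcolipin, the product of Sln, restrains the calcium pump of the sarcoplasmic reticulum. In mice a sleeve of heart muscle of atrial type runs along the pulmonary veins into the lung, so atrial-type transcripts belong to normal mouse lung, whereas the ventricles lie outside it. Myl2, Myl3 and Myh7 are also made by slow skeletal muscle, and Sln, Actc1 and Tnnt2 by immature skeletal muscle, so several of the 10 are not limited to the heart.

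RefSeq promoter sequences (GRCm38.p6) were available for 9 of the 10 genes, in 12 promoters. The 250 bases before each start were searched on both strands for the CArG box, the site bound by serum response factor in muscle genes, and it was found before Myl7, Myl3 and Actc1. These 3 are shown because they stand for the atrial-type, the ventricular-type and the shared genes, with the CArG box in capitals. Each is written 5' to 3' on the strand of its gene, ending at the base before the start.
Myl7, chr11:5898783-5899032, minus strand: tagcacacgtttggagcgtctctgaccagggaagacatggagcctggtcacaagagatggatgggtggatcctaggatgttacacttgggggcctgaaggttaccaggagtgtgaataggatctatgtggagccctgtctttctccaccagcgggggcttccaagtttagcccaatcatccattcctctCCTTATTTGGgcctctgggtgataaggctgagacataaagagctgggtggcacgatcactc
Myl3, chr9:110763428-110763677, plus strand: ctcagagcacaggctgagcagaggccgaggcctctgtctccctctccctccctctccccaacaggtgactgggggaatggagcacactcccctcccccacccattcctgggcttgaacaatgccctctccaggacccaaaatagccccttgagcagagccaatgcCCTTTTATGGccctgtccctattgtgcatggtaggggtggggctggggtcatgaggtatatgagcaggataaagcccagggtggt
Actc1, chr2:114052876-114053125, minus strand: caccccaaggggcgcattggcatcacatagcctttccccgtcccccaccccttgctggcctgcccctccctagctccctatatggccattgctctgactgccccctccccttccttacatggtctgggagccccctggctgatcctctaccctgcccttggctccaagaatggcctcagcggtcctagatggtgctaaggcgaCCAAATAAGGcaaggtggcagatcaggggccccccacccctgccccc
The box began 61 bases before the start in Myl7, 85 in Myl3 and 47 in Actc1. Of all 32851 RefSeq promoters in the same window, 482 (1.47%) held a CArG box. The MEF2 site was found in none of the 12 promoters of these genes and in 2.92% of all promoters, and the GATA-type letters AGATAA were found in Myl2 and Tnnt2 and in 9.99% of all. The CArG box and the MEF2 site, both rich in A and T, can overlap. A match describes the letters of this window only. Myh6 and Myh7 are neighbours on chromosome 14, with 0 protein-coding genes between them.

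Several libraries went against their labels or stood apart, and the results below were computed with and without them. Shares of all probe sets that passed, given as background, are those of the fit to all 66 libraries, and none is given for the other runs. Nfe2l2 lay at 4.41 to 8.26 in KO libraries, against 10.49 to 12.25 in WT libraries, on the log2(normalised signal + 16) scale used for all levels here. The highest KO values were those of KO E13.5 replicate 1 (8.26) and replicate 3 (6.76), against a KO median of 5.35. The 6 lung epithelium markers, among them Sftpc and Scgb1a1, were present throughout, with means of 8.83 to 13.57 in KO libraries, against 7.55 to 13.56 in WT libraries. Their mean was 11.52, 8.83 and 10.36 in KO E13.5, against 7.55, 7.93 and 8.02 in WT E13.5, so the KO libraries labelled E13.5 carried more of the markers of mature lung. The KO libraries labelled E17.5 (12.75 to 12.83) also lay above those labelled E18.5 (11.98 to 12.36), whereas WT E17.5 (12.23 to 12.55) lay below WT E18.5 (12.69 to 13.03). The 24 arrays of PND1 to PND4 had 2% trimmed mean signals of 171.7 to 307.14 and the 42 of the other ages exactly 500, with both genotypes of each age in the same set. Precision was limited by having 3 arrays in a group, and SEs of differences use 1 variance per probe set, estimated from all 22 groups together. In homogenised lung, fewer heart muscle cells and less RNA per cell cannot be told apart.

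The levels of all 10 genes varied more between samples of the same group than those of nearly all other probe sets. The SD left within groups was 1.58 for Myl2, 1.54 for Myl3 and 1.20 for Sln, at percentiles 99.9, 99.9 and 99.7 of the 45037 probe sets. It was least for Actc1, at 0.61 (percentile 96.1). The spread followed whole libraries. WT PND2 replicate 1 was the highest of the 66 libraries for 6 genes (Myl4, Myl7, Sln, Myh6, Tnni3 and Actc1), KO E18.5 replicate 1 for the 3 ventricular-type genes, and KO E13.5 replicate 1 for Tnnt2. WT E18.5 replicates 1 and 2 were the lowest pair of libraries for 6 of the 10 (Myl4, Myl7, Myl3, Myh6, Tnni3 and Actc1), while WT E18.5 replicate 3 was high for the same genes.

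**Figure D1:**
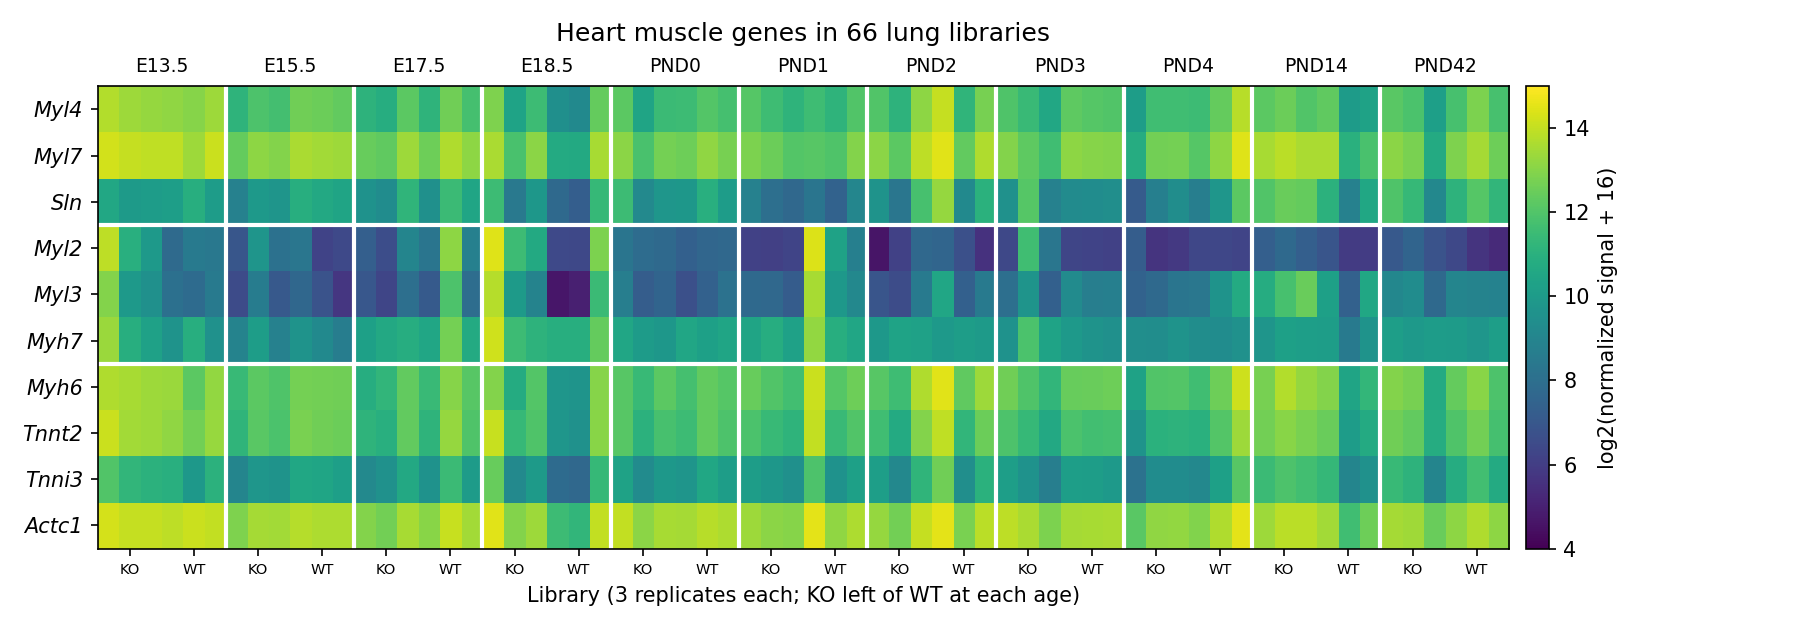
Level of each of the 10 heart muscle genes (rows; atrial-type, ventricular-type and shared genes from top to bottom) in each of the 66 libraries (columns, by age, KO left of WT), as log2(normalised signal + 16) on the colour scale. Myl2 is dark in most libraries and bright in a few, such as KO E18.5 replicate 1 (14.45) and WT PND1 replicate 1 (14.43), and WT E18.5 replicates 1 and 2 are dark in most rows.

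Among the ventricular-type genes, Myl2, the regulatory light chain of ventricular myosin, was near the middle of the array or below it in most libraries and very bright in a few. It lay under 8 in 44 of the 66 libraries and below the array median of 6.71 in 26, and it lay above 10 in 10 (6 KO and 4 WT, from 6 groups). These lines were chosen after the values were seen, so they describe the libraries and were not tested. Its deposited signal ran from 5.63 to 26381. Myl2 stood at 13.91, 10.94 and 9.90 in KO E13.5, against 7.81, 8.48 and 8.41 in WT E13.5, where all KO libraries lay above all WT libraries. It stood at 6.94, 9.75 and 8.11 in KO E15.5, against 8.32, 6.21 and 6.43 in WT E15.5, and at 7.32, 6.60 and 9.01 in KO E17.5, against 8.27, 13.15 and 8.80 in WT E17.5. At both ages the groups overlapped, and WT E17.5 replicate 2 stood far above its group. Myl2 stood at 14.45, 11.53 and 10.68 in KO E18.5, against 6.42, 6.38 and 12.85 in WT E18.5. All 3 KO libraries were high there, and WT replicate 3 lay among them.

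After birth Myl2 was low in nearly all groups, with exceptions at PND1 and PND3. It stood at 8.26, 7.89 and 7.78 in KO PND0, against 7.39, 7.61 and 7.71 in WT PND0. It stood at 6.12, 6.10 and 6.26 in KO PND1, against 14.43, 10.34 and 8.74 in WT PND1, so every KO library lay below every WT library and WT replicate 1 was as high as any library of the series but KO E18.5 replicate 1. At PND2 it ranged over 4.63 to 7.71 in KO and 5.57 to 7.58 in WT, and at PND4 over 5.64 to 7.26 in KO and 6.27 to 6.36 in WT. At PND3 it stood at 6.37, 11.62 and 8.33 in KO, against 6.31, 6.21 and 6.11 in WT. KO PND3 replicate 2 was also the highest library for the mean of 17 skeletal muscle genes (11.99, with Acta1 at 14.76 and Ckm at 14.05), while the other ventricular genes stood at 4.43 (Irx4), 6.87 (Hey2) and 4.42 (Nppb) there. Nppb was lower there than in any other of the 10 libraries with Myl2 above 10, whereas Irx4 was between 4.27 and 4.56 in 6 of the 10, this one included. The part of skeletal muscle RNA in that value was not tested. At PND14 Myl2 stood at 7.35, 7.77 and 7.35 in KO, against 6.92, 5.91 and 5.95 in WT, and at PND42 at 7.08, 7.56 and 6.83 in KO, against 6.39, 5.66 and 5.33 in WT.

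**Figure D2:**
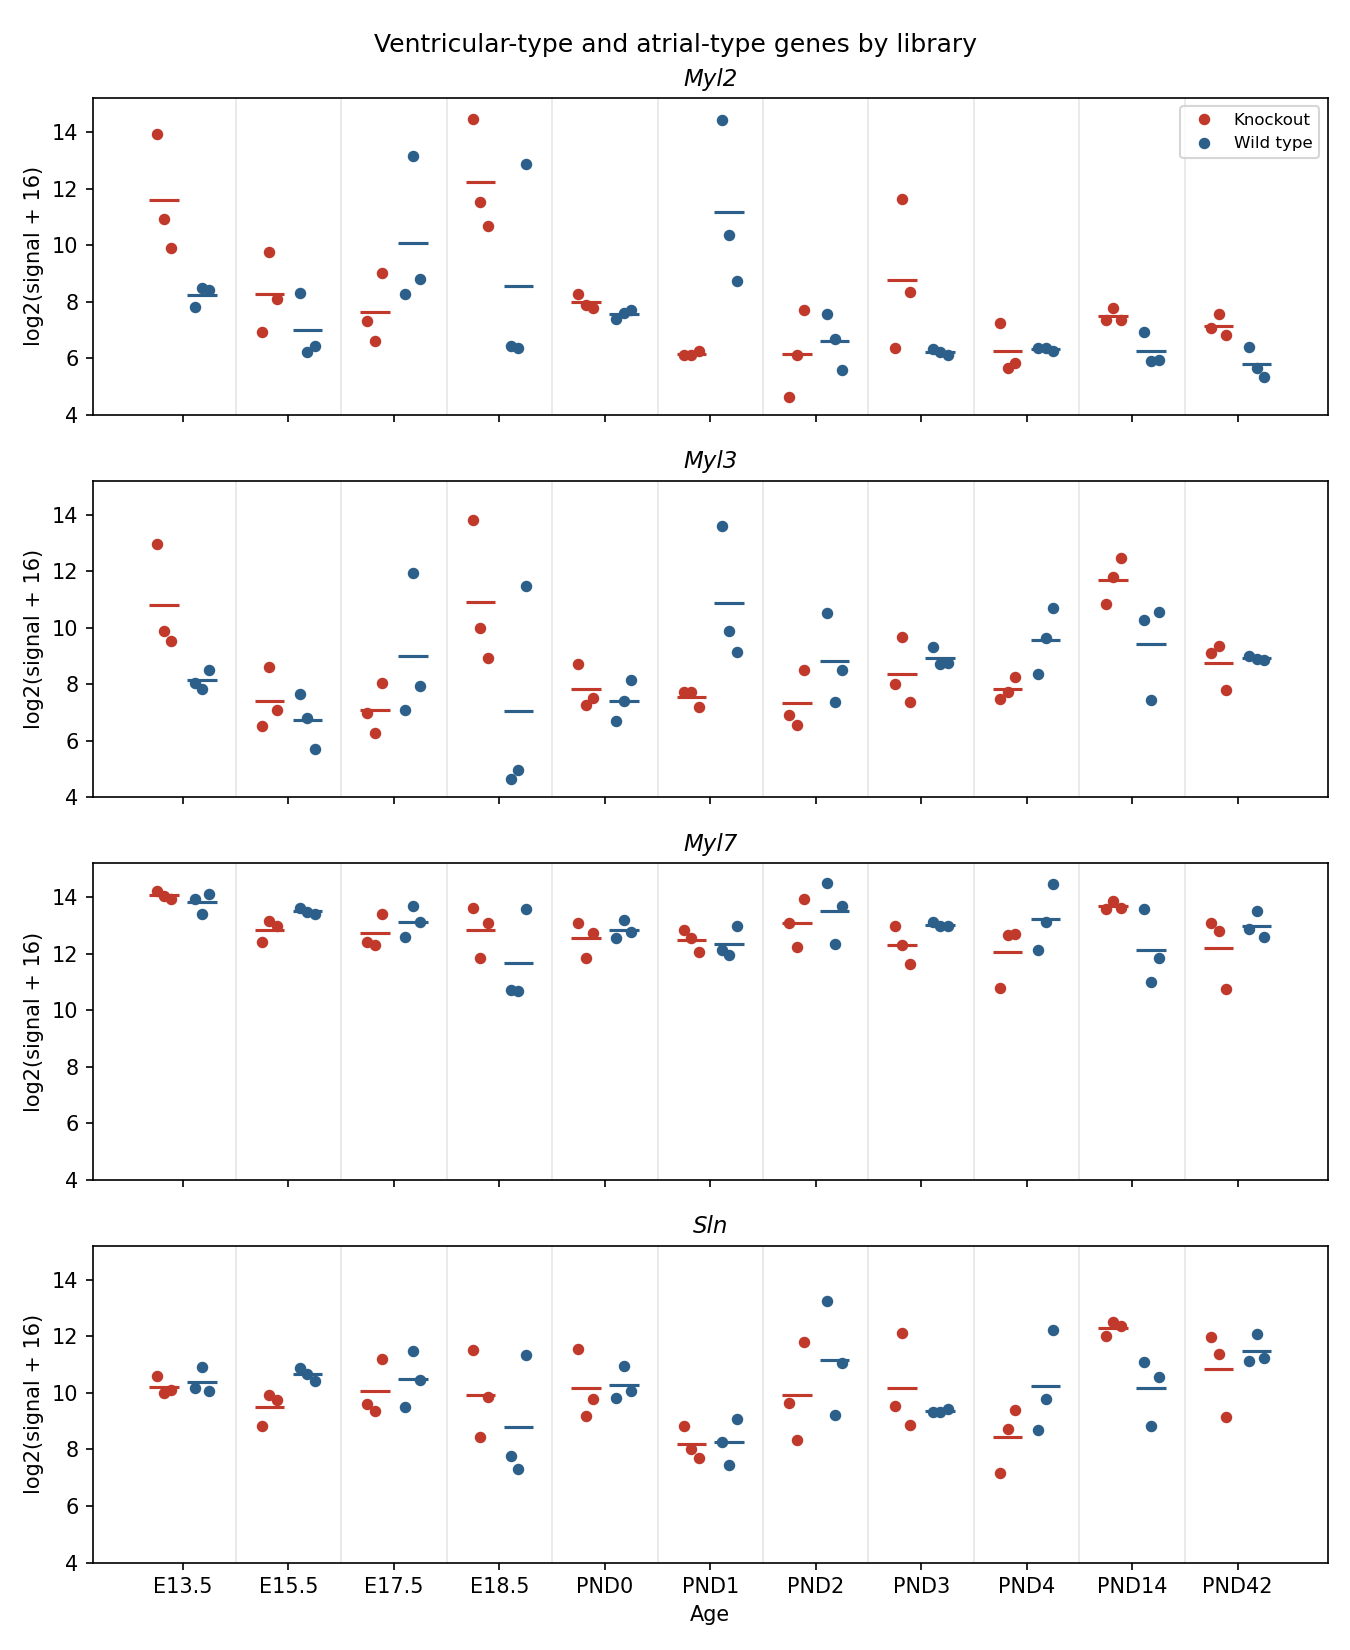
Level of Myl2, Myl3, Myl7 and Sln, as log2(normalised signal + 16), in each library (points) by age, with KO left of WT and the mean of each group of 3 as a line. Single Myl2 points stand apart in WT E17.5 (13.15), WT E18.5 (12.85), WT PND1 (14.43) and KO PND3 (11.62), while Myl7 stays between 10.68 and 14.50 in all libraries.

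Myl3, the essential light chain of ventricular and slow skeletal myosin, shared the high libraries of Myl2 at E13.5, E18.5 and PND1 and differed from it at PND3 and PND4. Myl3 stood at 12.95, 9.89 and 9.53 in KO E13.5, against 8.05, 7.85 and 8.51 in WT E13.5, and at 13.79, 9.99 and 8.93 in KO E18.5, against 4.66, 4.98 and 11.48 in WT E18.5. At PND1 it stood at 7.74, 7.71 and 7.18 in KO, against 13.58, 9.87 and 9.15 in WT. The same libraries were thus high for both light chains. At PND3 Myl3 stood at 8.01, 9.68 and 7.38 in KO, against 9.32, 8.72 and 8.74 in WT, where the groups overlapped, and at PND4 at 7.48, 7.74 and 8.27 in KO, against 8.37, 9.63 and 10.71 in WT, where all KO libraries were lower. The Myl2 groups were separate at PND3 and overlapped at PND4. At PND14 Myl3 stood at 10.82, 11.80 and 12.48 in KO, against 10.26, 7.43 and 10.54 in WT, with all KO libraries higher, as for Myl2. KO PND14 was the highest group for Myl3 (11.70 ± 0.83, SD, n = 3) and WT E15.5 the lowest (6.74 ± 0.98).

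Myh7, the slow heavy chain of ventricular and slow skeletal muscle, had a higher base and a narrower spread (8.50 to 14.21, median 10.18). It stood at 14.21, 11.55 and 11.10 in KO E18.5, against 10.91, 10.91 and 12.38 in WT E18.5, and at 10.41, 10.84 and 10.31 in KO PND1, against 13.21, 10.90 and 10.51 in WT PND1. At E13.5 it stood at 13.33, 10.88 and 10.28 in KO, against 9.66, 10.89 and 9.56 in WT. The groups overlapped at these 3 ages, and the first replicate of KO E18.5, WT PND1 and KO E13.5 stood out, as for Myl2 and Myl3. Over all 22 groups Myh7 was highest in KO E18.5 (12.28 ± 1.68) and lowest in WT E15.5 (9.18 ± 0.48).

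The libraries with high ventricular-type genes did not share 1 profile. In WT PND1 replicate 1, Myl2 (14.43), Myl3 (13.58) and Myh7 (13.21) were high, and so were the other ventricular genes: Nppb, a natriuretic peptide, stood at 9.11, against 5.29 and 5.49 in the others of its group, Irx4, a ventricular transcription factor, at 7.11, against 4.56 and 4.35, and Hey2, another, at 8.03, against 6.94 and 7.08. The atrial-type genes did not stand out there: Myl7 was 12.13 in replicate 1, against 11.95 and 12.98 in the others, and Sln 8.28, against 7.45 and 9.07. The mean of other atrial genes did, at 7.44, against 6.70 and 6.59. Among them Nppa stood at 12.03, against 8.44 and 7.47, and Kcnj5 at 7.74, against 6.06 and 6.52. Mybphl was lower there (6.30, against 6.76 and 7.28), and Gja5, Kcnj3 and Bmp10 lay between the others of the group. Skeletal muscle genes averaged 6.73 in that library. In KO E18.5 replicate 1, Nppb stood at 10.67, Irx4 at 6.63 and Hey2 at 8.57, Myl7 at 13.62 and Sln at 11.52 were also the highest of their group, and the skeletal muscle mean was 8.95 and the cartilage mean 10.51. In KO E13.5 replicate 1, WT E17.5 replicate 2 and WT E18.5 replicate 3, Nppb lay at 9.87, 9.83 and 9.03, Irx4 at 6.71, 5.47 and 4.31, Hey2 at 8.34, 7.08 and 7.22, and the skeletal muscle mean at 8.51, 8.05 and 8.75. Irx4 was thus near the floor of 4 in WT E18.5 replicate 3, where Nppb and Myl2 were high. WT PND1 replicate 2, with Myl2 at 10.34, had a liver gene mean of 12.65. The part of other tissues in these levels was not tested.

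**Figure D3:**
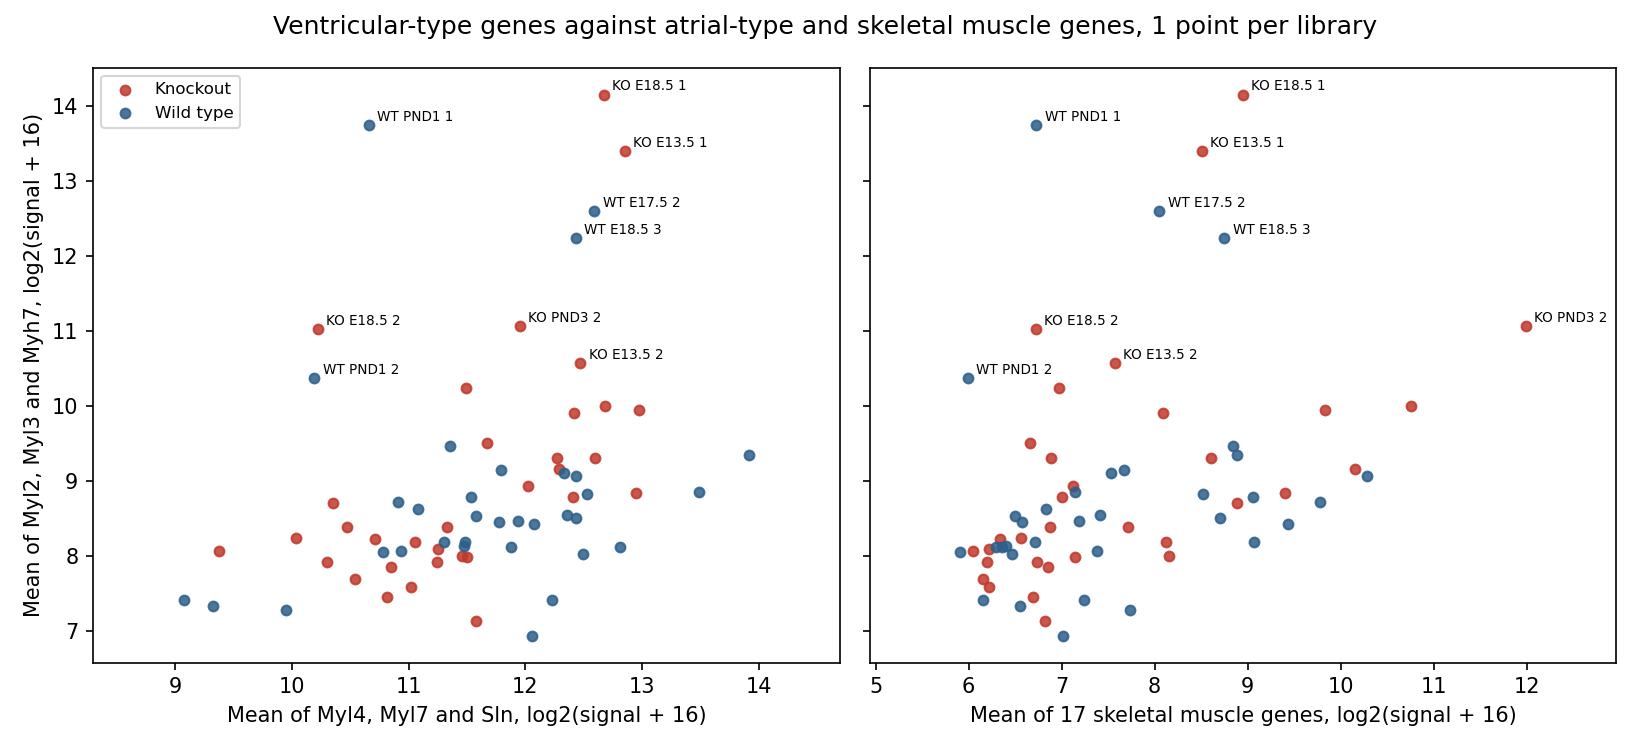
Mean level of Myl2, Myl3 and Myh7 in each library (vertical axis) against the mean of Myl4, Myl7 and Sln (left) and against the mean of 17 skeletal muscle genes (right), both as log2(normalised signal + 16), with 1 point per library, KO and WT by colour and the libraries with the highest vertical values named. WT PND1 replicate 1 has a high ventricular-type mean (13.74) with a skeletal muscle mean of 6.73, and KO PND3 replicate 2 lies at the far right with 11.99.

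The atrial-type genes were present in every library. Myl7, the atrial regulatory light chain, lay between 10.68 and 14.50 with a median of 12.97, and Myl4, the atrial essential light chain, between 9.22 and 14.02 with a median of 11.97. Their highest group means were in KO E13.5 (14.07 ± 0.15 for Myl7 and 13.45 ± 0.25 for Myl4, SD, n = 3). Myl7 stood at 14.23, 14.04 and 13.93 in KO E13.5, against 13.94, 13.39 and 14.12 in WT E13.5, and the groups overlapped. Myl4 stood at 13.73, 13.37 and 13.24 in KO E13.5, against 13.16, 13.00 and 13.38 in WT E13.5, and again overlapped. At E18.5 Myl7 stood at 13.62, 11.84 and 13.09 in KO, against 10.72, 10.68 and 13.58 in WT. The 2 low WT libraries there made WT E18.5 the lowest of the 22 groups for Myl7 (11.66 ± 1.66) and Myl4 (10.36 ± 1.75), with the widest spread of all. WT PND3 was the tightest group for Myl7 (SD 0.09).

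Sln covered a wider range, from 7.17 to 13.26, and its highest group was KO PND14 (12.30 ± 0.25). It stood at 12.01, 12.50 and 12.38 in KO PND14, against 11.08, 8.83 and 10.57 in WT PND14, with all KO libraries above all WT libraries. Its lowest group was KO PND1, at 8.83, 8.02 and 7.70, against 8.28, 7.45 and 9.07 in WT PND1. At PND3 it stood at 9.55, 12.11 and 8.85 in KO, against 9.31, 9.33 and 9.42 in WT. The single high value was KO PND3 replicate 2, the library with the high skeletal muscle genes.

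The 4 shared genes moved with the atrial-type genes in most libraries and with the ventricular-type genes in some. Tnnt2, cardiac troponin T, stood at 14.13, 13.47 and 13.41 in KO E13.5, against 13.17, 12.65 and 13.29 in WT E13.5, without overlap. At E18.5 it stood at 14.09, 11.37 and 11.97 in KO, against 9.77, 9.57 and 13.04 in WT, and at PND1 at 11.90, 11.41 and 11.17 in KO, against 13.98, 11.46 and 12.02 in WT. The first replicates of KO E18.5 and WT PND1 were again the high ones. Myh6, the fast heavy chain, stood at 12.44, 12.01 and 11.69 in KO PND1, against 14.12, 12.11 and 12.58 in WT PND1. Tnni3, cardiac troponin I, ranged from 7.70 to 12.62 and Actc1, cardiac actin, from 11.22 to 14.55. Actc1 was highest in KO E13.5 (14.13 ± 0.16) and lowest in WT E18.5 (12.25 ± 1.51).

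Whether loss of Nrf2 changed heart muscle genes over lung development as a whole was asked with the KO minus WT difference averaged over the 11 ages. None of the 10 passed, 0 of 10 against a background of 10.6% of all probe sets. The differences lay between -0.22 and 0.54 on the log2 scale with a median of -0.13, against a median of 0.01 over all probe sets. Myl2 had the largest, 0.54 ± 0.36 (SE, n = 33 per genotype, adjusted p = 0.41, limma), and was higher in KO at 7 of 11 ages. With KO and WT compared at PND1 to PND4 alone, Myl3 passed, at -1.78 (limma, adjusted p = 0.0084). The share of all probe sets in that run, and runs of it without single libraries, are not given here. By age, the Myl3 difference was -3.32 at PND1, -1.48 at PND2, -0.57 at PND3 and -1.74 at PND4. At PND1, WT replicate 1 stood at 13.58, against 9.87 and 9.15 in the others of its group. At the 7 other ages alone none passed, and the differences of Myl4, Myl7, Sln, Myh6, Tnnt2, Tnni3 and Actc1, negative in the average, lay between 0.06 and 0.29.

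At single ages, 3 of 110 member-by-age differences passed, against a background of 4.8% over all probe sets and ages. At E18.5, Myl3 was higher in KO by 3.86 ± 1.18 (14.6-fold, SE, n = 3 per group, adjusted p = 0.028) and Myl2 by 3.67 ± 1.21 (12.7-fold, adjusted p = 0.045), 2 of 10 higher against a background of 4.72% (8.75% in either direction). The groups overlapped in both, since WT replicate 3 lay within the KO range, and the SD of Myl2 was 1.97 in KO and 3.73 in WT. The other 8 differences at E18.5 were all positive, from 0.88 (Myh7) to 1.69 (Tnnt2), and Actc1 missed the threshold (1.38 ± 0.47, adjusted p = 0.053). At PND1, Myl2 was lower in KO by 32.2-fold (-5.01 ± 1.21, adjusted p = 0.014), 1 of 10 lower against a background of 0.804% (2.05% in either direction), and Myl3 did not pass (-3.32 ± 1.18, adjusted p = 0.14). All 3 calls rested on few libraries. Without WT E18.5 replicate 1, WT E18.5 replicate 2 or KO E18.5 replicate 1, the Myl3 difference was 2.67, 2.83 and 2.42 (adjusted p = 0.28, 0.26 and 0.35) and the Myl2 difference 2.61, 2.58 and 2.56 (adjusted p = 0.32, 0.34 and 0.35), and the Myl2 difference was 4.01 (adjusted p = 0.058) without KO E18.5 replicate 2. Without WT E18.5 replicate 3, the differences were 6.09 for Myl3 and 5.82 for Myl2. At PND1 the Myl2 difference was -3.38 without WT replicate 1 (adjusted p = 0.18) and -4.98 without KO replicate 2 (adjusted p = 0.053). With only the 6 libraries of an age in the fit, none of the 3 passed (adjusted p = 0.28 and 0.3 for Myl2 and Myl3 at E18.5, and 0.093 for Myl2 at PND1).

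Markers of other tissues were set beside these calls. At E18.5, 3 of 6 cartilage genes rose in KO, namely Col2a1 (3.69 ± 1.00), Col9a1 (2.37 ± 0.75) and Col11a1 (2.11 ± 0.64), and the cartilage mean was 7.42 to 10.51 in KO, against 6.0 to 7.12 in WT. Of 6 lung epithelium genes, 1 fell in KO, Scgb1a1 (-1.63 ± 0.50, adjusted p = 0.030), and their mean was 11.98 to 12.36 in KO, against 12.69 to 13.03 in WT, without overlap. The Myl2 and Myl3 calls at E18.5 thus came from KO libraries that lay below those labelled KO E17.5 in these markers. Skeletal muscle genes passed in 0 of 17, with means of 6.72 to 8.95 in KO and 6.16 to 8.75 in WT, and the 3 other ventricular genes (Irx4, Hey2 and Nppb) in 0 of 3, with means of 6.09 to 8.62 in KO and 5.61 to 6.85 in WT. The thymus mean at E18.5 was 7.69, 5.82 and 5.53 in KO, against 5.42, 5.93 and 8.16 in WT. It was highest in KO replicate 1 and WT replicate 3, the libraries of each group with the most Myl2. At PND1, 0 of 17 skeletal muscle genes, 0 of 6 liver genes and 0 of 3 other ventricular genes passed. The skeletal muscle mean was 6.20 to 6.34 in KO, against 5.99 to 8.84 in WT, the liver mean 5.62 to 7.30 in KO, against 6.98 to 12.65 in WT, and the other ventricular mean 5.23 to 5.83 in KO, against 5.6 to 8.08 in WT. The part of these tissues, and of the lung's stage, in the differences was not tested.

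**Figure D4:**
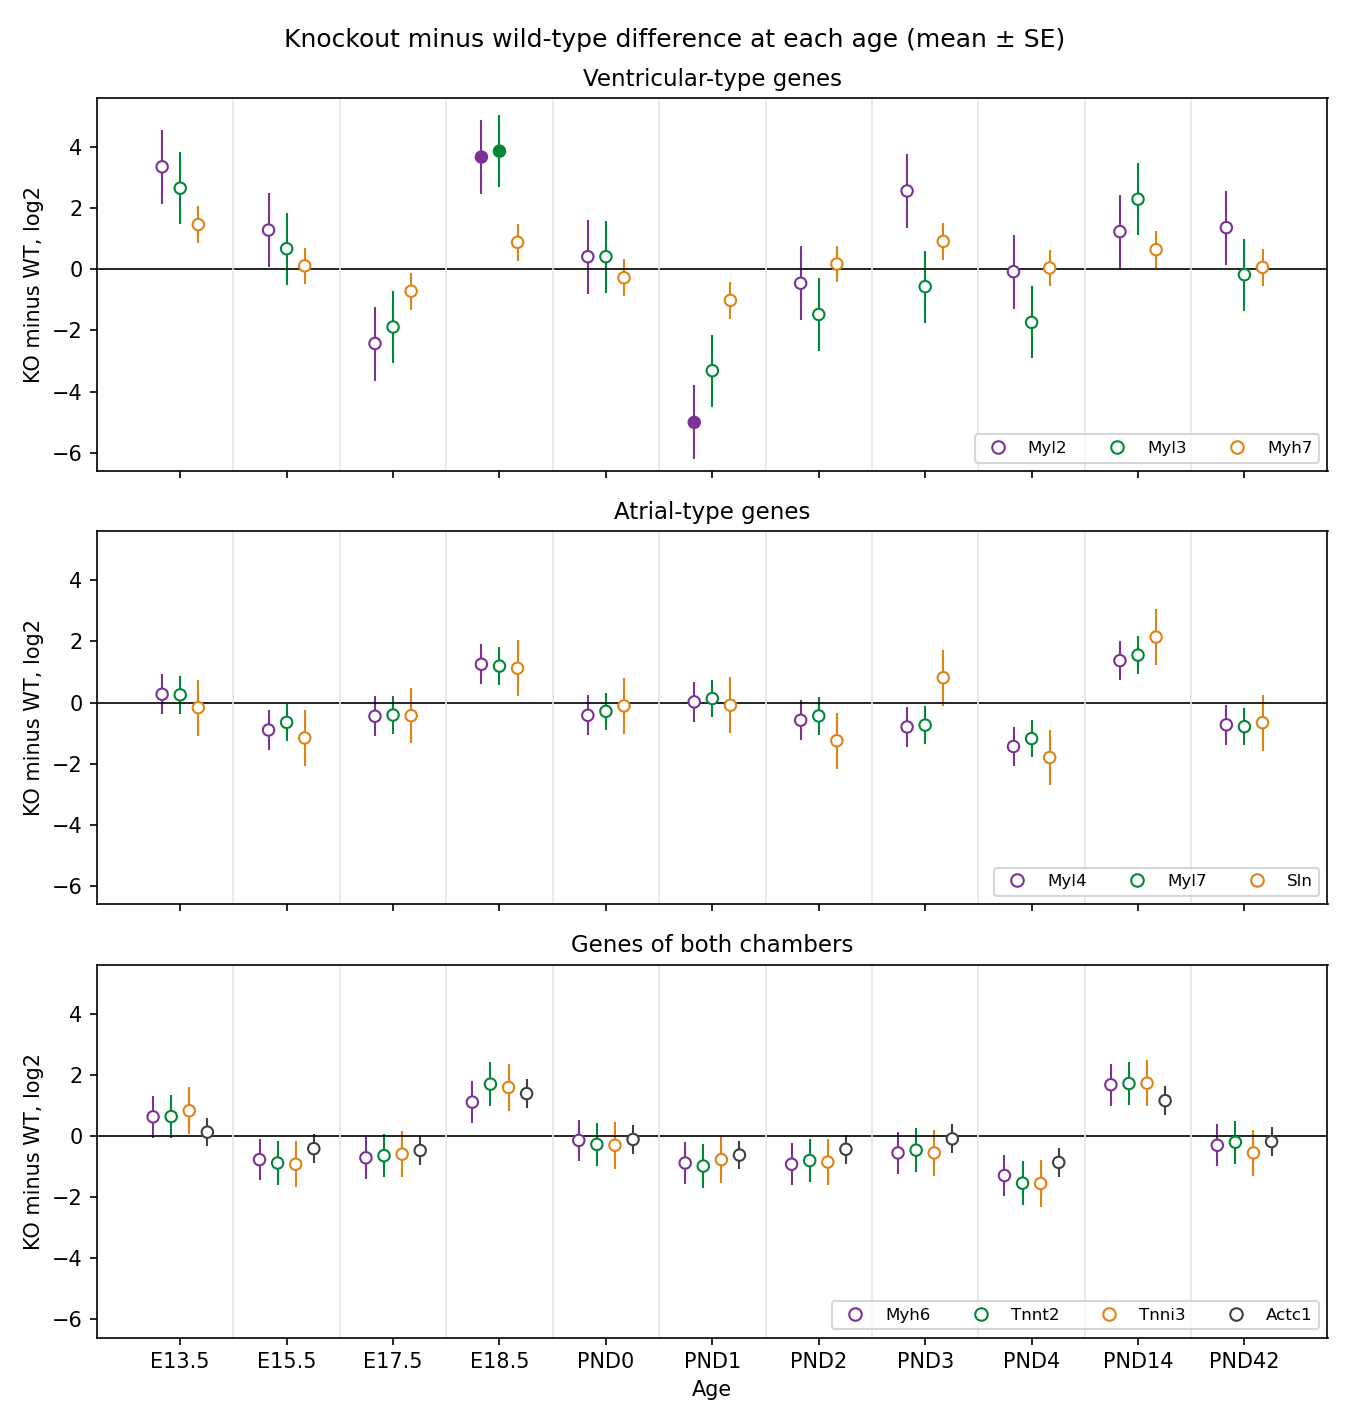
KO minus WT difference of each gene at each age in log2 units, with SE bars, for the ventricular-type (top), atrial-type (middle) and shared genes (bottom); filled points passed the adjusted threshold of 0.05. The 3 filled points are Myl2 (3.67) and Myl3 (3.86) at E18.5 and Myl2 (-5.01) at PND1, and all 10 genes lie above 0 at E18.5 and at PND14.

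At PND14 all 10 differences were positive on the brightest probe sets, with a median of 1.61, against 0.02 over all probe sets. Of these, 0 of 10 passed, against a background of 8.2%. In 7 the unadjusted p was under 0.05, and the lowest adjusted p was 0.11, for Myl7 (1.55 ± 0.61). All 3 KO libraries lay above all 3 WT libraries in 5 of 10 (Sln, Myl2, Myl3, Tnnt2 and Tnni3). Of all probe sets at this age, 15.1% had separate groups in either direction. WT PND14 replicate 2 was low, with Myl7 at 11.00 and Tnnt2 at 10.08, and had a thymus gene mean of 11.74. The log2 ratio of 3' to 5' Gapdh signals is a sign of RNA quality. It was 0.77, 1.38 and 1.36 in KO PND14, against 0.88, 0.24 and 1.01 in WT PND14. Thymus genes passed as lower in KO in 5 of 6, with means of 5.57 to 5.90 in KO, against 6.09 to 11.74 in WT, and 1 of 17 skeletal muscle genes, Myh1, rose in KO (3.37 ± 1.05), with means of 8.60 to 10.75 in KO, against 7.53 to 9.78 in WT. Of 7 smooth muscle genes, 2 rose in KO, Acta2 (0.61 ± 0.18, adjusted p = 0.024) and Cnn1 (1.34 ± 0.42, adjusted p = 0.038), with means of 10.5 to 10.67 in KO, against 9.17 to 10.63 in WT, WT replicate 2 being the lowest. Of 12 other sarcomere genes, 1 rose, Mybpc3, cardiac myosin-binding protein C (2.09 ± 0.68, adjusted p = 0.046). Whether these tissues had a part in the PND14 values was not tested. Without WT PND14 replicate 1, 10 of the 110 member-by-age differences passed in place of 3, and the share of all probe sets in that run is not given here.

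At the other ages 0 of 10 passed at each (limma), against 1.54% of all probe sets at E13.5, 0.127% at E15.5, 1.22% at E17.5, 10.7% at PND0, 5.96% at PND2, 8.08% at PND3, 0.486% at PND4 and 5.68% at PND42. An unadjusted p under 0.05 was reached by 3 genes each at E13.5 and PND4, by 1 each at E17.5 and PND3, and by 0 at the rest. The share of genes with separate groups varied. At E13.5 it was 5 of 10 with all KO libraries higher (Myl2, Myl3, Myh6, Tnnt2 and Tnni3), against a background of 15.3% in either direction. Myl2 differed by 3.35 ± 1.21 (adjusted p = 0.17), in libraries whose lung epithelium markers also differed, 4 of 6 of them higher in KO. At E15.5 it was 7 of 10 with all KO libraries lower, against 19% in either direction. The largest of these differences was that of Sln, -1.16 ± 0.91 (adjusted p = 0.97). At E17.5 all 10 differences were negative (-2.43 to -0.41) and the groups overlapped in each, against 23.5% of probe sets with separate groups. Separate groups were seen for 0 of 10 at E18.5 (26%), 1 at PND0 (28.4%), 2 at PND1 (19.7%), 0 at PND2 (20.2%), 3 at PND3 (27.5%), 1 at PND4 (18.4%) and 1 at PND42 (25.1%), the percentages being those of all probe sets. The genes shared their libraries, so these 10 differences at an age do not count as separate observations.

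Whether the KO minus WT difference was equal at the 11 ages was tested directly with an F test. It was not for Myl2 (F = 4.44, adjusted p = 0.0017) and Myl3 (F = 3.47, adjusted p = 0.0094), 2 of 10 against a background of 28.3%. Their differences ran from -5.01 and -3.32 at PND1 to 3.67 and 3.86 at E18.5. For the other 8 the adjusted p ranged from 0.078 (Tnnt2) to 0.31 (Myh7). Without E13.5, and without E17.5 and E18.5, where lung epithelium markers of KO libraries did not follow the order of their labels, the count was again 2 of 10.

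Age within the wild type was asked next. The F test over the 11 ages passed for 7 of 10, against a background of 65.2%: Myl2 (adjusted p = 0.00067), Myh7 (0.0012), Myl4 (0.0062), Actc1 (0.016), Myh6 (0.045), Myl7 (0.046) and Sln (0.047). Tnni3 (0.42), Tnnt2 (0.13) and Myl3 (0.06) did not pass. The last 3 of the 7 lay just under the threshold, and leaving out 1 library at a time gave between 3 and 10 calls, 3 without WT E18.5 replicate 1 and 10 without WT E18.5 replicate 3.

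Over 3 age steps in each genotype, 13 of 60 member differences passed, against 22% of all probe sets and steps. Between E13.5 and E18.5 the atrial-type light chains and some shared genes were lower at the later age. In WT, 5 of 10 fell, against a background of 18.7%: Myl4 at -2.82 ± 0.65, Tnnt2 at -2.25 ± 0.71, Myl7 at -2.16 ± 0.61, Myh6 at -2.11 ± 0.68 and Actc1 at -1.75 ± 0.47 (SE, n = 3 per group, adjusted p = 0.00038 to 0.011). In KO, 1 of 10 fell, against 11.2%, namely Myl4 (-1.83 ± 0.65, adjusted p = 0.034). This KO step joins 2 labels that the lung epithelium markers did not follow: KO E13.5 lay above WT E13.5 in them, and KO E18.5 below KO E17.5. The part of the labels in it was not tested. The 2 low WT E18.5 libraries carried much of the fall in WT. Without replicate 2, the falls of Myl7 (-1.67, adjusted p = 0.054), Myh6 (-1.54, adjusted p = 0.12), Tnnt2 (-1.63, adjusted p = 0.11) and Actc1 (-1.24, adjusted p = 0.057) did not pass and Myl4 still did (-2.24), and without replicate 1, Myl7, Myh6 and Tnnt2 did not pass. The KO fall of Myl4 was lost without any one of 5 libraries (adjusted p = 0.059 to 0.27), 3 of KO E13.5 and 2 of KO E18.5. Cardiac regulators fell with these genes in WT in 5 of 6, with Hand2 at -3.54 ± 0.60 and Gata4 at -1.47 ± 0.34, both transcription factors of the early heart, and 5 of 12 other sarcomere genes fell, among them Csrp3 (-2.85 ± 0.85) and Tnnc1, cardiac troponin C (-2.59 ± 0.70). Cartilage genes fell in 6 of 6 and skeletal muscle genes in 6 of 17 over the same step, while 5 of 6 lung epithelium genes rose. The part of these tissues was not tested.

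The other steps were from PND1 to PND4 and from E18.5 to PND42. From PND1 to PND4, 2 of 10 fell in WT, against a background of 4.75%: Myl2 at -4.85 ± 1.21 (adjusted p = 0.0044) and Myh7 at -2.09 ± 0.60 (adjusted p = 0.017). Without WT PND1 replicate 1 neither passed (-3.22, adjusted p = 0.11, and -1.25, adjusted p = 0.26), and Myh7 also missed the threshold without WT PND4 replicate 1 or 2. Myl3, the remaining ventricular-type gene, did not pass in that step (-1.3 ± 1.18, limma, adjusted p = 0.62). In KO 0 of 10 passed, against 7.88%. From E18.5 to PND42, Myl2 (-5.06 ± 1.21, adjusted p = 0.00061) and Myh7 (-2.22 ± 0.60, adjusted p = 0.0027) fell in KO, 2 of 10 against 17.9%, and the fall of Myh7 was -1.26 (adjusted p = 0.12) without KO E18.5 replicate 1. The ratio of 3' to 5' Gapdh signals, a sign of RNA quality, moved with this step: its log2 was 0.43 to 0.66 in KO PND42, against -0.38 to -0.36 in KO E18.5, and 0.06 to 0.45 in WT PND42, against -0.43 to -0.28 in WT E18.5. With it as a covariate the step of Myl2 in KO was -5.18 and did not pass (adjusted p = 0.056), and that of Myh7 passed. In WT 3 of 10 rose over that step, against 11.6%: Sln by 2.68 ± 0.91 (adjusted p = 0.024), Tnni3 by 2.11 ± 0.76 (adjusted p = 0.036) and Myl4 by 1.80 ± 0.65 (adjusted p = 0.035). None of the 3 passed without WT E18.5 replicate 1 (2.16, 1.55 and 1.37), without WT E18.5 replicate 2 (1.93, 1.47 and 1.23) or without WT PND42 replicate 2 (2.38, 1.80 and 1.46), and Tnni3 also missed the threshold without WT PND42 replicate 1 or 3. None of the 3 passed with the Gapdh covariate (2.37, 2.12 and 1.88, adjusted p = 0.19, 0.16 and 0.14). Genes of heart calcium handling and energy supply rose in WT over the same step in 5 of 12, led by Ckmt2, mitochondrial creatine kinase (4.65 ± 0.89), Mb, myoglobin (4.70 ± 1.31), and Atp2a2, the calcium pump that sarcolipin restrains (1.87 ± 0.51). These rises start from the same WT E18.5 libraries. Runs without single libraries or with the Gapdh covariate are not given for them here. Of the differences of each step between KO and WT, 0 of 10 passed for E18.5 against E13.5 (background 6.21%, limma), PND4 against PND1 (0.0488%) and PND42 against E18.5 (5.6%), with 0, 1 and 4 of them at an unadjusted p under 0.05.

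Further probe sets read 5 of the genes (2 each for Myl3 and Tnnt2, 1 each for Myl4, Sln and Myh6). At E18.5 the 2 other Myl3 probe sets gave 3.59 (adjusted p = 0.037) and 2.68 (adjusted p = 0.077), against 3.86 for the brightest, so 1 of the 2 passed. At PND14 the second Myl4 probe set gave -0.86, the second Myh6 probe set 0.06 and 1 other Tnnt2 probe set 0.17. The remaining ones lay between 0.77 (Sln) and 2.44 (Myl3). In the step from E13.5 to E18.5 in WT, the second Myl4 probe set gave -0.80 (adjusted p = 0.091) and the second Myh6 probe set -0.59 (adjusted p = 0.49), whereas both other Tnnt2 probe sets passed (-2.69 and -1.35). The WT falls of Myl4 and Myh6 were therefore seen on 1 of their 2 probe sets each. Over the same step in KO, the second Myl4 probe set did not pass (-0.88, limma, adjusted p = 0.084). The second Myh6 probe set passed there (-1.58, adjusted p = 0.043), unlike the brightest. From E18.5 to PND42 in WT, the second Sln probe set gave 0.13 (adjusted p = 0.88) and the second Myl4 probe set 0.4 (adjusted p = 0.52). Those rises were thus also seen on 1 of 2 probe sets each.

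Most of the genes fell into sets that moved together across the 66 libraries. The libraries share arrays, ages and tissue composition, so the correlations are descriptions. Myl4 and Myl7 correlated at r = 0.96 (Pearson, Spearman's rho 0.95), also within groups (0.97), and Tnnt2 with Tnni3 at 0.93, with Actc1 at 0.92 and with Myh6 at 0.92. Myl2 correlated with Myh7 at 0.82 (rho 0.58) and with Myl3 at 0.62 (rho 0.36, or 0.86 within groups), but with Myl7 at only 0.21 (rho 0.24), which was 0.43 in the 42 arrays of the other ages and -0.28 in the 24 arrays of PND1 to PND4. Over all libraries Myl3 was at least as close to the shared genes. It correlated at 0.75 with Tnni3, 0.68 with Tnnt2, 0.64 with Myh6 and 0.63 with Actc1. With Myh7 it correlated at 0.55 (rho 0.24), and within groups at 0.80, against 0.85 with Tnnt2. With the mean of the 17 skeletal muscle genes, Sln correlated at 0.58 and Myl2 at 0.33, and Myl3 correlated with the 12 genes of heart calcium handling and energy supply at 0.84.

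Of 15750 other genes, those most like the mean of the 3 atrial-type genes were Csrp3, a protein of the Z-disc of striated muscle (r = 0.93, rho 0.92), Mybphl, a myosin-binding protein gene of the atria (0.86), Ldb3 (0.85), Trdn, triadin of the calcium release complex (0.85), Ankrd1 (0.84), Cpe (0.84), Tnnc1 (0.84) and Sh3bgr (0.83). Those most like the mean of the ventricular-type genes were Kcne1, a potassium channel subunit (r = 0.83, rho 0.39), Pln, phospholamban (0.72, rho 0.60), Myom1, a protein of the M-band (0.68), Strip2 (0.68), Bves (0.67), Alpk3 (0.66), Lrrc39 (0.65) and Mybpc3 (0.65). The likeness was lower for the ventricular-type mean and rested more on a few libraries: without the 2 libraries farthest from the median, r was 0.74 for Kcne1 and 0.60 for Pln, against 0.91 for Csrp3 with the atrial-type mean.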

How the data were processed

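RNA of 66 lung samples was measured on 1 array each. The deposited values were linear intensity values, 1 signal per probe set and array, which the authors computed in GCOS (named in the submitters' processing notes). The sources used here give neither its version nor its scaling. Controls (64 of 45101 probe sets) were left out of the tests. Signals were quantile normalised between arrays and analysed as log2(value + 16), so folds understate changes of dim genes. Probe sets with exactly 1 symbol (34945) were named, and the brightest stood for a gene.

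One limma model (version 3.58.1, R 4.3.3) with 22 group means was fitted to all 45037 probe sets, with an intensity trend (residual df 44, prior df 6.69). P-values were two-sided and Benjamini-Hochberg adjusted over the 45037 probe sets of each contrast, with a threshold of 0.05. An exact permutation test of 3 against 3 cannot go below p = 0.1, so none was used. The model was tested on simulated data.

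The 10 genes, the 15 gene lists (102 of 104 entries measured) and the tests were chosen with earlier results of these data known. All members were named. Of other list genes, counts and at most 4 examples with the smallest adjusted p were named, and the 8 genes most like each mean (members centred first; predicted and sex-linked genes passed over); a few levels beside high libraries were chosen after their values were seen.

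The highest correlation between arrays was 0.9834, and no 2 arrays held identical values. Replicate numbers were shared between genotypes: deviations of same-numbered samples correlated at -0.18 to 0.21 over 33 pairs, 1 of them over 0.1, so they were not treated as pairs. Figures were drawn with matplotlib 3.10.9.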

Additional observations from a re-analysis of the deposited data

Results flagged for a closer look

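The KO minus WT difference depended on age for Myl2 (F test, limma, adjusted p = 0.0017) and for Myl3 (adjusted p = 0.0094), which a test of the difference between ages showed. That is 2 of 10, against a background of 28.3% of all probe sets, so dependence on age was not particular to these genes. For Myl2 the difference was -5.01 at PND1 and 3.67 at E18.5, and it was positive at 7 of 11 ages. For Myl3 it was -3.32 at PND1 and 3.86 at E18.5, and it was positive at 5 of 11 ages. Within the groups behind these values, Myl2 ranged over 10.68 to 14.45 in KO E18.5 and 6.38 to 12.85 in WT E18.5, and over 6.10 to 6.26 in KO PND1 and 8.74 to 14.43 in WT PND1.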

How the results depend on the processing

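The count of genes that passed in the average over ages was 0 under every alternative run except PND1 to PND4 alone (1). Left out 1 at a time, the 66 libraries gave 1 to 10 calls at single ages (3 with all), 2 to 8 for dependence on age (2), 3 to 10 for age in WT (7) and 7 to 22 for the age steps (13); 9, 8 and 22 came without WT E18.5 replicate 3. Array weights gave 6 calls at single ages, 8 for dependence on age and 22 for the steps. The shares of all probe sets called in the alternative runs are not given here, so these counts have no background. A variance without trend gave 4 calls for age in WT, as did the ratio of 3' to 5' Gapdh signals as a covariate. The 6 libraries of an age alone gave 1 call at single ages. With the replicate number within each age as a block, 1 passed at single ages and none of the 3 calls was kept (Myl2 adjusted p = 0.096 at E18.5 and 0.052 at PND1, Myl3 0.059 at E18.5); the block changed the other counts by nothing. The Myl2 call at E18.5 was lost as deposited, scaled to a trimmed mean of 500 or without trend (adjusted p = 0.054 to 0.06), and the Myl3 call with a pseudocount of 64 (0.065). The Gapdh covariate ended the steps to PND42 of Myl2 in KO and of Myl4, Sln and Tnni3 in WT (adjusted p = 0.056, 0.14, 0.19 and 0.16).

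Uncalled averages changed sign. At the 7 ages outside PND1 to PND4, Myl4 was 0.06, Myl7 0.12, Sln 0.11, Myh6 0.2, Tnnt2 0.29, Tnni3 0.25 and Actc1 0.21. At PND1 to PND4 alone, Myl2 was -0.75 and Myl3 -1.78. Myl3 was -0.04 with array weights, 0 with the Gapdh covariate, -0.2 without E13.5 and -0.14 without E17.5 and E18.5, the last 2 chosen after seeing the data; leaving out single libraries gave -0.07 to 0.27 for Myl3 and -0.1 to 0.02 for Actc1. The cause of these changes was not tested. The file gives no detection calls, so how far a dim signal lay above background is unknown.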
